A study of Homo sapiens with 4 samples.

Results

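The mitochondrial ribosomal protein genes are the nuclear genes for the proteins of the ribosome that works inside mitochondria. They were taken as every protein-coding gene of the deposited table whose name starts with MRPL or MRPS, which gave 78 of the 28391 genes listed, 49 of them MRPL genes and 29 MRPS genes. Their RNA was compared between cells with and without a knockdown of ALKBH5, an enzyme that removes the methyl group of N6-methyladenosine from RNA. The cells were HCT116, an established human colorectal carcinoma line. A control hairpin (shNC) was carried by the cells of 2 libraries, whose genotype label is WT, and a hairpin that targets ALKBH5 (shALKBH5) by those of another 2, whose genotype label is ALKBH5 knockdown. Both groups are otherwise the same line with no treatment given. The labels do not say how the hairpins were delivered, whether the cells were a pool or a clone, or whether replicate libraries were grown as separate cultures. The p-values therefore measure the spread between these libraries, which may be technical.

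The mitochondrial ribosome makes the few proteins encoded by mitochondrial DNA, which are core subunits of the respiratory chain and of ATP synthase. Its ribosomal RNAs and a structural transfer RNA are made inside the organelle, while all of its proteins are encoded in the nucleus, translated in the cytosol and imported. Many of them descend from the proteins of the bacterial ribosome, and others are found in mitochondria and not in bacteria. The subunits thus assemble from the products of both genomes, and the amount of this machinery is known to follow the demand of a tissue for respiration and growth. MRPL names were given to large-subunit proteins and MRPS names to small-subunit proteins, but structures placed MRPS30 and MRPS18A in the large subunit, and MRPS36 turned out to be a component of the alpha-ketoglutarate dehydrogenase complex.

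The values are normalised counts, that is, the read count of a gene over the size factor of its library. The genes of the table held 17493141 and 16398604 reads in the shNC pair and 16884473 and 17047446 in the shALKBH5 pair. ALKBH5 itself was at 1905 and 1941 normalised counts in shNC and at 312 and 270.2 in shALKBH5. It fell by 2.72 on the log2 scale (SE 0.0812, limma-trend adjusted p = 0.00131), so the target went the way its labels say. All 6 epithelial markers of the line were in the table, with summed levels of 111670 and 114370 in shNC and 105440 and 103300 in shALKBH5. KRT18 (log2 fold change -0.30, limma-trend adjusted p = 0.0260) and KRT8 (-0.15, adjusted p = 0.0484) were called lower. EPCAM (0.18), CDH1 (-0.19), CLDN4 (-0.14) and KRT19 (-0.01) were not called. Of 10 markers of leukocytes, endothelium, fibroblasts and hepatocytes, 7 were in the table, and their sum lay between 883.7 and 974.7 in the 4 libraries. COL1A1 made up nearly all of that sum with 837.7 to 910.3, and ALB, DCN and PECAM1 lay between 0 and 6.01. The part of these marker levels in the results was not tested. In bulk RNA, fewer cells with a transcript and less of it per cell cannot be told apart.

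RNA of the mitochondrial ribosomal protein genes was modestly higher with the ALKBH5 hairpin across much of the family. Summed over the 78 genes, the level was 70290.8 and 71632.4 normalised counts in shNC and 78630.9 and 78318.4 in shALKBH5, means of 70961.6 ± 948.6 and 78474.6 ± 221 (SD, n = 2 each) and a ratio of 1.106. Both shALKBH5 libraries lay above both shNC libraries. As a share of all reads the family held 0.4225% and 0.4275% in shNC and 0.4596% and 0.459% in shALKBH5, a ratio of 1.081. The normalised totals of all genes, 16638568 and 16754209 in shNC and 17108778 and 17061692 in shALKBH5, also differed, so the ratio of shares is the smaller of these ratios. The level of the median member was 843.7 and 845.4 in shNC and 945.9 and 926.3 in shALKBH5. Set against the shNC mean gene by gene, the median log2 difference of the members was -0.01 and 0.01 in the shNC libraries and 0.14 in each shALKBH5 library. The libraries of a group were thus much closer to each other than to the other group.

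Of the 78 genes, 68 had a log2 fold change above 0 and 10 below, with a median of 0.15 and quartiles of 0.04 and 0.22. Over all 25887 genes tested the median was 0.00 and 49.1% lay above 0, and over the 11577 protein-coding genes averaging 50 or more normalised counts (the expressed protein-coding genes) it was 0.01 with 51.1% above 0. In 49 of the 78 genes both shALKBH5 libraries lay above both shNC libraries, in 5 they lay below, and in 24 the groups overlapped. The same separation upwards was seen in 25% of all genes tested and in 33.1% of the expressed protein-coding genes, and downwards in 25.6% and 31.4%. Fitted over the whole table with limma-trend on log2(value + 1), 8 of the 78 genes were higher in shALKBH5 at an adjusted p under 0.05 and 0 were lower. The percentage of all genes tested that was called higher was 1.98, the percentage called lower 1.88 and that in either direction 3.86, while among the expressed protein-coding genes the percentages were 4.19 and 4.12. At an unadjusted p under 0.05 the counts were 30 higher and 3 lower for the family, 2773 and 2758 for all 25887 genes, and 2162 and 2072 for the 11577 expressed protein-coding genes. DESeq2 called 10 higher and 0 lower of 76 (all genes 6.38% and 5.56%), and the authors' deposited table likewise gave 10 higher and 0 lower. The quasi-likelihood test of edgeR on the recovered reads called 23 higher and 1 lower of 77 (all genes 10.4% in each direction). The 8 genes of the first test were among the calls of both other tools.

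The count of calls under limma-trend depended on each control library. Without shNC replicate 1 or without shNC replicate 2, limma-trend called 0 genes of the whole table in either direction, members included, with 19 and 28 members higher at an unadjusted p under 0.05. Without a shALKBH5 library it called 12 higher and 2 lower (without replicate 1) or 11 higher and 0 lower (without replicate 2), where the percentages of all genes called higher and lower were 4.17 and 4.66, or 4.68 and 4.77. DESeq2 with 1 library left out called 0 to 4 members higher, and in 3 of those 4 fits the family's percentage called higher was below that of all genes (1.37 against 2.83 without shNC replicate 1, 0 against 1.64 without shALKBH5 replicate 1, and 1.37 against 1.93 without shALKBH5 replicate 2). In such a fit the lone library is assumed to vary like the pair. Without a trend of variance on mean, limma also called 0 genes of the whole table, with 10 members higher and 2 lower at an unadjusted p under 0.05.

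**Figure D1:**
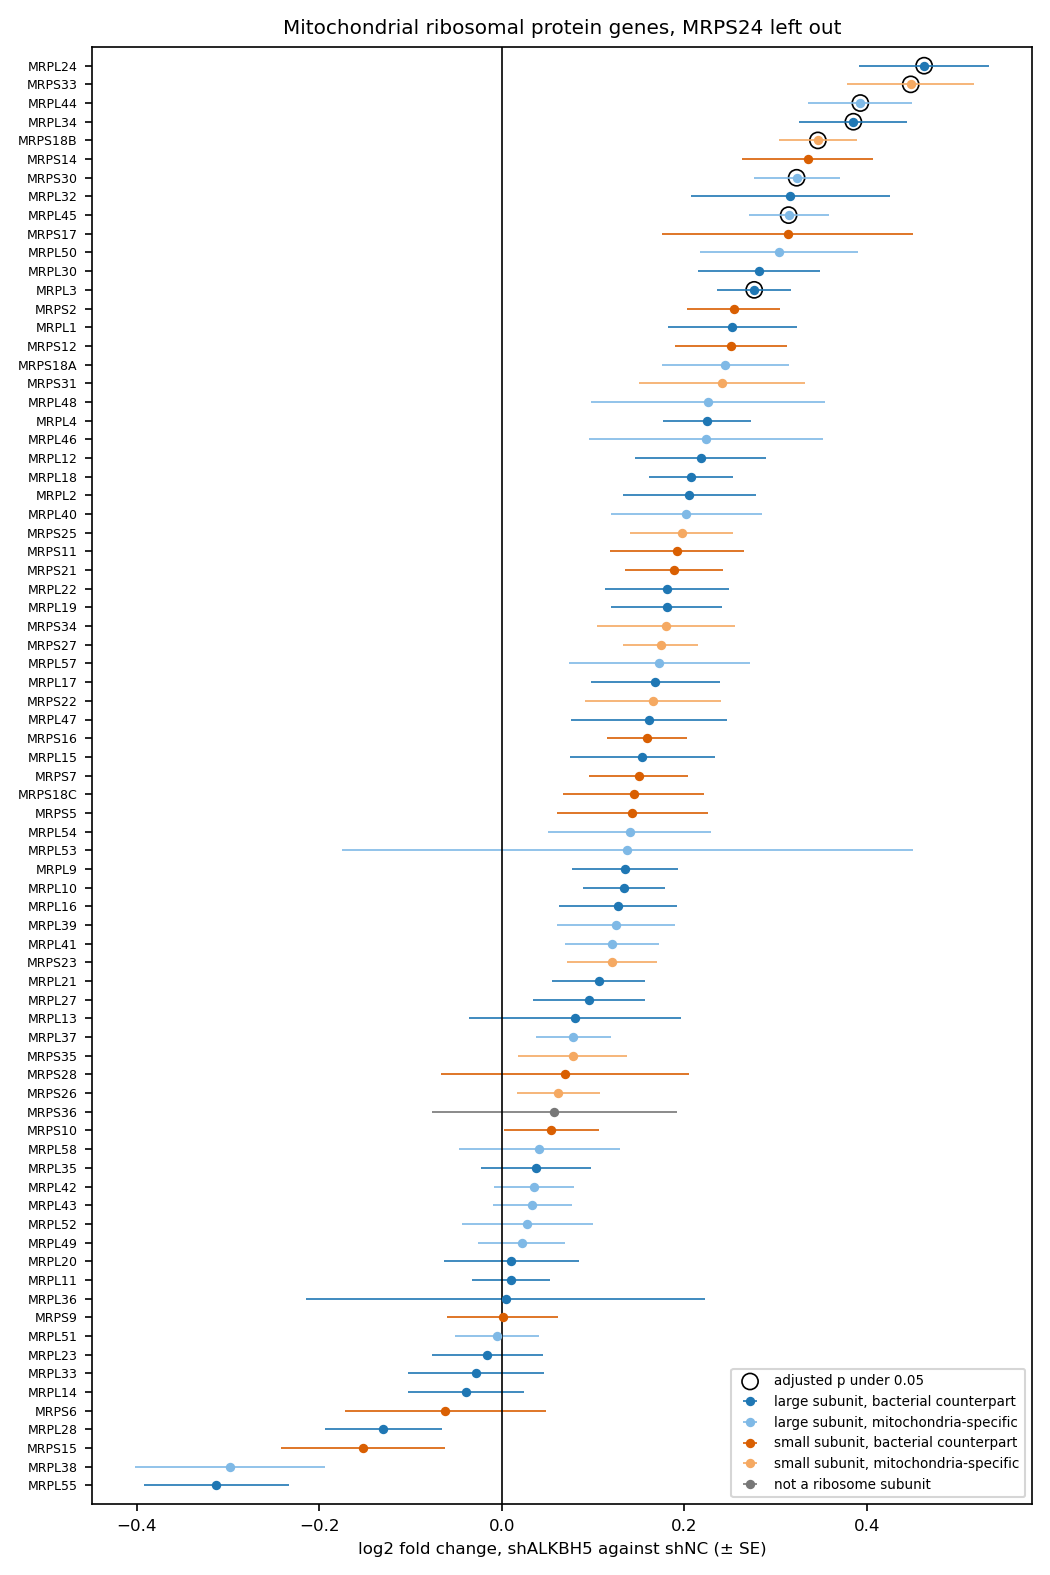
Log2 fold change of shALKBH5 against shNC (x axis) for 77 of the genes, 1 per row. Colours give the subunit and whether there is a bacterial counterpart at the same place. Bars are the standard error from limma-trend and rings mark the 8 genes with an adjusted p under 0.05. MRPS24, at -1.38 on under 10 normalised counts, is left out so that the axis stays readable. Most points lie to the right of 0, and the lowest are MRPL55 and MRPL38.

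Of the genes that passed, 6 encode large-subunit proteins. MRPL24, a counterpart of a bacterial protein that joins the large subunit early in its assembly (chr1:156737303-156741590, GRCh38, minus strand), was at 862.7 and 963.4 normalised counts in shNC and at 1297 and 1218 in shALKBH5. Its shNC libraries stood further apart than those of the other genes that passed, yet both lay below the shALKBH5 pair. The log2 fold change was 0.46 (SE 0.0714, adjusted p = 0.0374), the highest of the family and 1.38 as a linear ratio. MRPL3, whose bacterial counterpart reaches toward the centre where peptide bonds form (chr3:131462212-131502983, minus strand), was read at 1978 and 1966 in shNC and at 2345 and 2434 in shALKBH5. This was a rise of 0.28 (SE 0.0403, adjusted p = 0.0333), the smallest among the genes that passed, between groups that were each tight. MRPL34, a very small protein with a bacterial counterpart (chr19:17292609-17306843, plus strand), was at 820.8 and 834.7 in shNC and at 1126 and 1039 in shALKBH5. It rose by 0.39 (SE 0.0591, adjusted p = 0.0372). Of its exon bases 13.2% are shared with ABHD8 on the opposite strand. If counting ignored the strand, which is not given, reads of that gene cannot be told apart there.

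The other large-subunit genes that passed have no bacterial counterpart. MRPL44, which carries a fold of the ribonuclease III family (chr2:223957404-223967714, plus strand), was at 698.1 and 679.4 normalised counts in shNC and at 930.2 and 879.7 in shALKBH5. The groups were clearly apart, at a log2 fold change of 0.39 (SE 0.0569, adjusted p = 0.0329). Of its exon bases 12.9% are shared with AC073641.1 on the opposite strand. MRPL45, which lies at the exit of the peptide tunnel and helps to attach the ribosome to the inner membrane (chr17:38297023-38323218, plus strand), was at 1103 and 1091 in shNC and at 1374 and 1355 in shALKBH5. Its replicates nearly coincided, and the rise was 0.31 (SE 0.0439, adjusted p = 0.0305). The pseudogene MRPL45P2 was listed at 69.4 and 87.9 in shNC and at 112.5 and 135.1 in shALKBH5, the highest of the family's pseudogenes, so reads placed between the copies remain uncertain. MRPS30, first described as a protein linked to programmed cell death (chr5:44808925-44820428, plus strand), was at 1313 and 1385 in shNC and at 1681 and 1693 in shALKBH5. It rose by 0.32 (SE 0.0470, adjusted p = 0.0333) with no overlap between the groups.

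Small-subunit genes that passed were MRPS18B and MRPS33, and neither has a counterpart in bacteria at its place in the subunit. MRPS18B, one of the human relatives of the bacterial S18 protein (chr6:30617709-30626395, plus strand), was at 1623 and 1580 normalised counts in shNC and at 2068 and 2004 in shALKBH5. It had the smallest p of the family, with a log2 fold change of 0.35 (SE 0.0426, adjusted p = 0.0228) and a linear ratio of 1.27. MRPS33, a protein of the head of the small subunit (chr7:141002610-141015228, minus strand), was at 466.1 and 444.4 in shNC and at 598.9 and 644.5 in shALKBH5. It was the lowest in count of the genes that passed and rose by 0.45 (SE 0.0696, adjusted p = 0.0379).

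**Figure D2:**
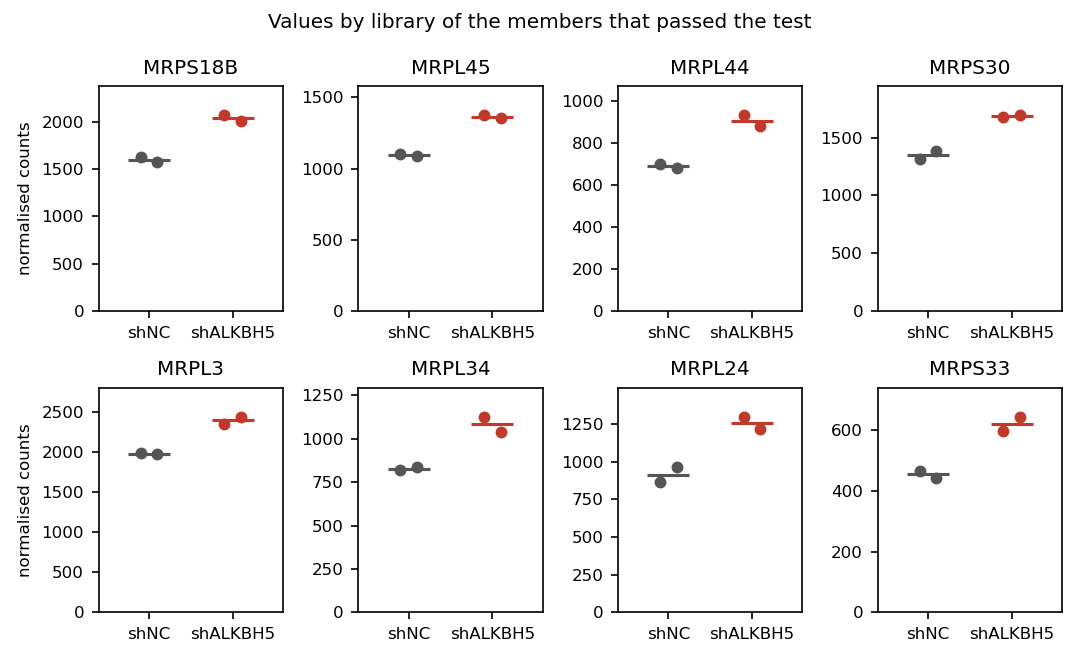
Normalised counts (y axis, from 0) of the 8 genes with an adjusted p under 0.05, by library. Each point is 1 library and each line the mean of the 2 libraries of a group. In every panel both shALKBH5 points lie above both shNC points, by ratios of the means between 1.21 and 1.38.

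The sequences at the starts of these genes are shown because short promoter elements recur in the family. Promoters of 300 bases, 250 before to 50 after the annotated start, were found in RefSeq (GRCh38.p14) for 69 of the 78 genes. The genes with no entry are MRPL2, MRPL10, MRPL13, MRPL15, MRPL21, MRPL23, MRPL35, MRPS28 and MRPS36. Motifs were searched as exact letters on both strands. The letters CCGGAAG, the core bound by ETS factors such as GABPA, a known regulator of mitochondrial genes, occurred in 42.0% of the family's promoters (29 genes), in 10.7% of all 27305 promoters and in 20.1% of the 9235 promoters of expressed protein-coding genes. The letters AAGATGGCG, a form of the element bound by YY1, occurred in 18.8% (13 genes), 1.8% and 4.2%. The 6 letters TGCGCA, the short form of the NRF1 element, occurred in 20.3% (14 genes), 8.4% and 13.9%. The longer palindromic NRF1 element, whose letters as searched do not include the whole short one, was in 1 of the 69. CCAAT was in 20 of the 69, while 36.5% of the expressed genes held it, the GC box GGGCGG in 60.9% against 73.0%, and the E-box CACGTG, which MYC can bind, in 8.7% against 10.2%. These matches describe letters and are no record of binding.

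The YY1 letters lay mostly just after the start, with first bases from -223 to 36 relative to it. The element itself holds the letters ATG, and whether these are the start codons of the genes was not tested. Of 14 copies in 13 genes, 12 were on the gene's own strand and 10 began within 50 bases after the start. Those 10 are printed with up to 10 flanking bases, 5′ to 3′ on the strand of the gene (GRCh38.p14), with the element in capitals.
MRPL22 (chr5:154941098-154941122, plus strand): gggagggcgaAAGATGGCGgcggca
MRPL38 (chr17:75904860-75904888, minus strand): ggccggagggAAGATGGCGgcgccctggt
MRPL42 (chr12:93467512-93467540, plus strand): ggattgaaacAAGATGGCGggttcgtggt
MRPL46 (chr15:88467362-88467390, minus strand): gggagaacgaAAGATGGCGgcgcccgtaa
MRPL50 (chr9:101398577-101398605, minus strand): gatctcatcgAAGATGGCGgcgcgatctg
MRPS10 (chr6:42217834-42217862, minus strand): cgggaccggcAAGATGGCGgcgcggacag
MRPS18A (chr6:43687764-43687792, minus strand): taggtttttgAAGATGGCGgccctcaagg
MRPS18B (chr6:30617853-30617881, plus strand): ggcgtacgtcAAGATGGCGgcgtctgtat
MRPS24 (chr7:43869480-43869508, minus strand): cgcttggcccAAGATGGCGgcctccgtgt
MRPS30 (chr5:44808950-44808978, plus strand): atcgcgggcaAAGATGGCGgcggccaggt
The bases before the element differ from gene to gene, and in all but MRPL42 the letters gc follow it. Of these genes MRPS18B and MRPS30 passed the test, while MRPL38 had a log2 fold change of -0.30 and MRPS24 of -1.38. The family median was 0.18 for genes with the YY1 letters and 0.16 without, 0.14 with the ETS letters and 0.18 without, and 0.19 with the short NRF1 letters and 0.14 without.

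Whole promoters are given for the genes that passed and hold the YY1 or the ETS letters, 5′ to 3′ on the gene's strand, with YY1, ETS and short NRF1 letters in capitals.
MRPS18B (chr6:30617590-30617889, plus strand): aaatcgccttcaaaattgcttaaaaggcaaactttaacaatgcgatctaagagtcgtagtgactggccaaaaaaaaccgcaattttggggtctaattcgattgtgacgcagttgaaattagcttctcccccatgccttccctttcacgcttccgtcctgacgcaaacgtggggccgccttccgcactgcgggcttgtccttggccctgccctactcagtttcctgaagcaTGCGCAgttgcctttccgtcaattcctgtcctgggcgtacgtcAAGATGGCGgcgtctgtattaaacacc
MRPS30 (chr5:44808697-44808996, plus strand): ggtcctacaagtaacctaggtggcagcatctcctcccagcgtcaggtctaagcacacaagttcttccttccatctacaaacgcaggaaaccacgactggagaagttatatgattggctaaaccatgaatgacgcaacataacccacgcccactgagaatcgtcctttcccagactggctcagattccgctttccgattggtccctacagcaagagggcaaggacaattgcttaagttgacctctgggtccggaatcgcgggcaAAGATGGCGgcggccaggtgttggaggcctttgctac
MRPL3 (chr3:131502922-131503221, minus strand): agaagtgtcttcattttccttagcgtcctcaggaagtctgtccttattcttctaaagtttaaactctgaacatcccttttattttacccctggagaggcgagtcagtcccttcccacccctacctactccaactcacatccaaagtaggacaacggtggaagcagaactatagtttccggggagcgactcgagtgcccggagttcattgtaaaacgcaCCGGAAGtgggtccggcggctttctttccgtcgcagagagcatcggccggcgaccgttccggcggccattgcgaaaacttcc
MRPS33 (chr7:141014903-141015202, minus strand): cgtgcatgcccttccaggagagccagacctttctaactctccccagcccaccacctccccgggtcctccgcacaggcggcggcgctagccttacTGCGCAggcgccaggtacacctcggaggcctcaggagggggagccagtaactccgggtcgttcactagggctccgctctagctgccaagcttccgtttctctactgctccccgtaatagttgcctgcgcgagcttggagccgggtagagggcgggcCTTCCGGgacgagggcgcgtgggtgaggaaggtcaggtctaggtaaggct
In MRPS18B the YY1 element began 24 bases into the transcript and the short NRF1 element 20 bases before the start, and in MRPS30 the YY1 element began at base 14. In MRPL3 the ETS element began 32 bases before the start. In MRPS33 an ETS element began at base 1 on the opposite strand, so that the gene's strand reads CTTCCGG. The ETS letters as a whole had 39 copies in 29 genes, 27 of which began within 50 bases of the start on either side. Both the YY1 and the ETS letters were found in 4 promoters and neither in 31.

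**Figure D3:**
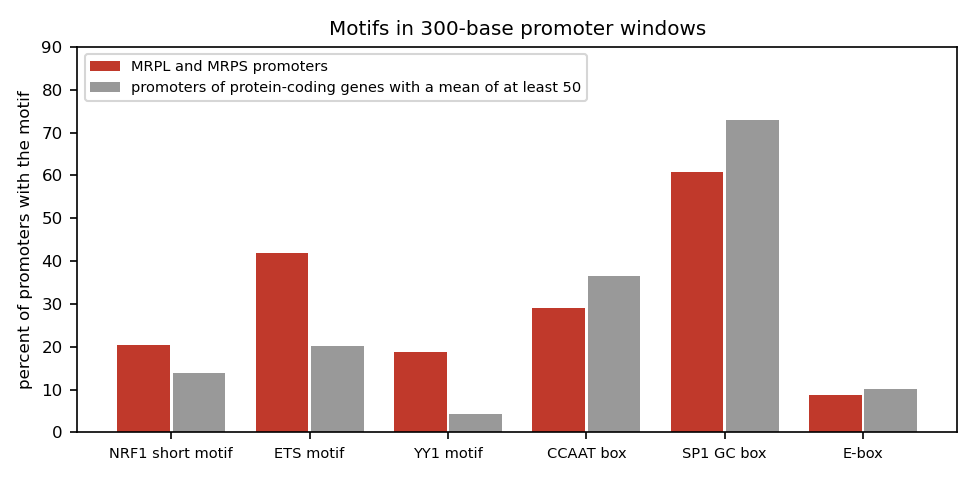
Percent of 300-base promoters (y axis) that hold each motif drawn, for 69 promoters of the family (red) and 9235 promoters of expressed protein-coding genes (grey). The longer NRF1 element is not drawn. The ETS letters stand at 42.0% against 20.1% and the YY1 letters at 18.8% against 4.2%, while the CCAAT, GC and E-box letters are less frequent in the family than in the other set.

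Split by place in the ribosome, both subunits were higher in shALKBH5 by like amounts. The 51 large-subunit genes summed to 44749.6 and 46033 normalised counts in shNC and to 49902.2 and 49832.6 in shALKBH5, a ratio of 1.099. The 26 small-subunit genes summed to 25222.5 and 25317.4 and to 28450 and 28136.5, a ratio of 1.12. In both sums the groups did not overlap. The large subunit had 6 genes higher and a median log2 fold change of 0.14, with 44 of 51 above 0, and the small subunit 2 genes higher and a median of 0.16, with 23 of 26 above 0. The difference between the subunits was not tested. Of the 46 genes with a bacterial counterpart 3 passed (median 0.15, 38 above 0). Of the 31 with no counterpart in bacteria at their place in the ribosome, MRPS18B among them, 5 passed (median 0.17, 29 above 0). The 16 small-subunit genes with a bacterial counterpart included 0 that passed limma-trend, but 7 were higher at an unadjusted p under 0.05, edgeR called 5 of them and DESeq2 called 2. All 10 small-subunit genes without a counterpart had log2 fold changes above 0, from 0.06 in MRPS26 to 0.45 in MRPS33. MRPS36, the gene whose product is not a ribosomal subunit, was at 318.6 and 282 in shNC and at 278.7 and 349.3 in shALKBH5, and its groups overlapped.

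The genes that did not pass were also higher as a sum. These 70 summed to 61426.1 and 62688.6 normalised counts in shNC and to 67211.2 and 67051 in shALKBH5, a ratio of 1.082. Their median log2 fold change was 0.14, and 60 were above 0, of which 43 lay between 0 and 0.2. Among them MRPS2, a small-subunit protein with a bacterial counterpart, was at 1406 and 1452 in shNC and at 1651 and 1758 in shALKBH5 (log2 fold change 0.25, adjusted p = 0.0628). MRPS12, whose bacterial counterpart sits at the decoding centre, was at 1298 and 1388 and at 1665 and 1534 (0.25, adjusted p = 0.0952). Both were called by DESeq2 and edgeR with groups that did not overlap. A further 13 genes were called higher by edgeR and not by the other tools, namely MRPL1, MRPL2, MRPL4, MRPL18, MRPL30, MRPL32, MRPL50, MRPS14, MRPS16, MRPS18A, MRPS21, MRPS27 and MRPS34. Their log2 fold changes under limma-trend lay between 0.16 (MRPS16) and 0.34 (MRPS14).

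Few members lay lower, and 0 passed limma-trend in that direction. MRPL55, the counterpart of a bacterial large-subunit protein that bridges the subunits (chr1:228106679-228109312, minus strand), was at 663 and 591.6 normalised counts in shNC and at 517.8 and 490.4 in shALKBH5. The groups did not overlap, the log2 fold change was -0.31 (SE 0.0792, adjusted p = 0.101), and edgeR called it (adjusted p = 0.0103). MRPL38, a large-subunit protein without a bacterial counterpart, was at 188.3 and 185.9 and at 157.1 and 147.1 (log2 fold change -0.30, adjusted p = 0.182), and 37.5% of its exon bases are shared on its strand with AC087289.3. MRPS24, the counterpart of a bacterial protein at the mRNA entry, was listed at 7.61 and 6.13 in shNC and at 2.03 and 2 in shALKBH5. Its log2 fold change of -1.38 (SE 0.499, adjusted p = 0.195) stands on under 10 normalised counts per library, and 23.2% of its exon bases belong also to the read-through gene URGCP-MRPS24. MRPL28, a large-subunit protein with a bacterial counterpart, was at 1006 and 1116 and at 971.7 and 964.8 (-0.13, adjusted p = 0.314). MRPS15 of the small subunit was at 1195.6 and 1154.5 and at 1154.1 and 967.8 (-0.15, adjusted p = 0.392), so that its groups all but touched without overlapping. MRPL14, MRPS6, MRPL33, MRPL23 and MRPL51 lay between -0.06 and -0.01 with overlapping groups. Of these, MRPS6 of the small subunit was at 300.6 and 353.5 in shNC and at 296.9 and 328.3 in shALKBH5. MRPL33 of the large subunit was at 377.6 and 362.7 and at 352.6 and 373.3.

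All 78 genes were detected in every library, at levels that ranged widely once divided by length. The median member was at 334 normalised counts per kilobase over the 4 libraries, against 117.9 for expressed protein-coding genes. The highest by this measure were MRPS34 (2610 normalised counts per kilobase), MRPL41 (1200), MRPS26 (1098), MRPL51 (1043) and MRPL14 (970). The lowest were MRPS24 (1.70), MRPL53 (21.4), MRPL46 (23.8), MRPS17 (45.6) and MRPL38 (46.3). All of the lowest share exon bases with another gene on their own strand, as do 16 of the 78 members in all. The shares were 23.2%, 45.2%, 11.3%, 27.0% and 37.5% in that order. The part of this sharing in their levels was not tested. MRPS34, a small-subunit protein specific to mitochondria, was at 2490 and 2885 normalised counts in shNC and at 3108 and 2968 in shALKBH5 (log2 fold change 0.18, adjusted p = 0.247). MRPL41, a large-subunit protein specific to mitochondria, was at 1399 and 1505 and at 1583 and 1573, with groups apart (0.12). MRPS26 of the small subunit was at 1231 and 1190 and at 1262 and 1265, also apart (0.06). MRPL51 was at 1637 and 1603 and at 1653 and 1575 (-0.01), and MRPL14 at 986.3 and 900.1 and at 930.2 and 903.8 (-0.04), both of the large subunit and both with overlapping groups. At the low end MRPL53, a large-subunit protein, was at 23.8 and 30.7 and at 25.3 and 35 (0.14), and its groups overlapped. MRPL46 of the large subunit was at 134.1 and 148.1 and at 154 and 176.1 (0.22), and MRPS17, a small-subunit protein with a bacterial counterpart, at 85.6 and 89.9 and at 107.4 and 111.1 (0.31), both with groups apart. The adjusted p of these 7 genes lay between 0.255 and 0.969. None of the 5 highest and 5 lowest per kilobase thus passed, while MRPS18B, which passed, had rank 6 from the top at 963. Over the 76 members averaging 50 or more normalised counts, Spearman's rho between log2 fold change and mean count, undivided by length, was 8.2e-05. That value is a description across genes that share their libraries.

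Some members averaging 50 or more normalised counts differed widely between libraries of a group. MRPL36, the counterpart of a bacterial zinc-binding protein of the large subunit, was at 386.2 and 545.6 normalised counts in shNC and at 389.1 and 544.5 in shALKBH5, so that the libraries numbered 1 matched and those numbered 2 matched, with a gap of 34.2% of its mean. MRPS28, of the small subunit, was at 259.7 and 264.6 and at 242.2 and 312.3, with the gap in shALKBH5. MRPL48, of the large subunit, was at 380.5 and 492.5 and at 500.6 and 512.4, a gap of 23.8% that came from shNC replicate 1. The adjusted p of these 3 genes lay between 0.376 and 0.998.

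The members are short genes, and log2 fold changes in these libraries moved with gene length. The median summed exon length was 2539 bases for the family and 5254 for expressed protein-coding genes. Over those 11577 genes, the median log2 fold change was 0.05, 0.02, -0.01 and -0.04 from the shortest to the longest quartile of length, and Spearman's rho between log2 fold change and length was -0.141 across genes. Of the 76 members counted here, 55 fell in the shortest quartile and had a median of 0.14, with 48 of the 55 above 0, where 60.7% of all genes of that quartile were above 0. The 10 members of the next quartile had a median of 0.11 and the 10 of the following one 0.19, with the longest quartile holding 1. The members' median lay above that of all genes in every quartile that held 10 or more of them. Among the members themselves rho between log2 fold change and length was 0.0364. The part of length in the result was not tested beyond these values.

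**Figure D4:**
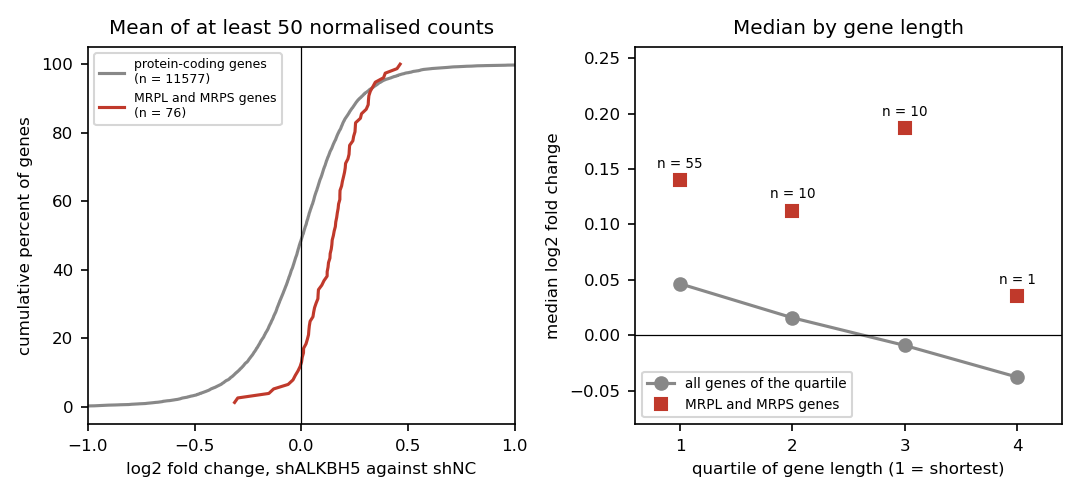
Left, cumulative percent of genes (y axis) up to each log2 fold change of shALKBH5 against shNC (x axis) for 76 members and 11577 expressed protein-coding genes. Right, median log2 fold change (y axis) by quartile of gene length (x axis), with the number of members beside each red square. The red curve crosses 0 with few genes to its left, and the red squares at 0.14, 0.11 and 0.19 lie above the grey points.

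Other properties of the genes and their transcripts are given as descriptions. The letters GGACT, the commonest core in which N6-methyladenosine is found, occurred at a median of 0.96 per kilobase of the members' transcripts and 0.94 in those of expressed protein-coding genes, and GC content was 48.9% and 49.7%. At least 1 copy was present in 76.3% of the members (58) and in 92.2% of the other set, whose median transcript of 3262 bases was longer than the 1462 bases of the members. The median log2 fold change was 0.16 for members with the letters and 0.13 for the 18 without. The members lie on 21 chromosomes with at most 8 on one. Exons of 16 members overlap another gene on the same strand and those of 29 on the opposite strand, and the sources used here do not give whether counting used the strand. The 37 members with no such overlap had a median of 0.14 with 34 above 0, and 6 of the 8 genes that passed are among them.

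Genes that serve the same ribosome under other names were read for comparison. Among 5 further ribosomal proteins 0 passed in either direction, the smallest p being that of CHCHD1, a small-subunit protein, at 607.8 and 628.3 normalised counts in shNC and at 725.5 and 699.6 in shALKBH5 (log2 fold change 0.20, adjusted p = 0.125), and their median was 0.07. Of the 3 RNAs of the ribosome, 1 passed and was lower, and edgeR called 2 lower (10.4% of all genes). MT-RNR2, the ribosomal RNA of the large subunit, fell from 112624 ± 3283 to 98798 ± 281 (SD, n = 2 each), with a log2 fold change of -0.19 (SE 0.0287, adjusted p = 0.0362 by limma-trend). MT-RNR1, that of the small subunit, was at 14360 and 19451 in shNC and at 17091 and 14867 in shALKBH5, with overlapping groups. The labels name an mRNA library kit, so these RNAs depend on how they were captured, which was not tested.

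Of 27 assembly factors, 1 passed higher and 1 lower, with a median of 0.10. MRM1, a methyltransferase of the large-subunit rRNA, was at 176.9 and 175.7 normalised counts in shNC and at 322.2 and 293.2 in shALKBH5 (log2 fold change 0.80, SE 0.0943, adjusted p = 0.0214). RBFA, a small-subunit assembly factor, was at 468 and 436.3 and at 294.9 and 329.3 (-0.53, SE 0.0883, adjusted p = 0.0427, and 0.0506 with no filter on low values). These changes were larger than that of any member that passed. Of 17 translation factors 0 passed, with a median of 0.14. GFM2, which acts in ribosome recycling, had the smallest p at 508.9 and 461.8 and at 627.2 and 664.6 (0.41, limma-trend adjusted p = 0.052). Of the 17, edgeR called 5 higher and 1 lower, and DESeq2 called GFM2 higher (adjusted p = 0.0213). Of 6 genes of mitochondrial transcription 0 passed, with a median of 0.18. POLRMT, the mitochondrial RNA polymerase, was at 4273 and 4386 and at 4909 and 4820 (0.17, limma-trend adjusted p = 0.064). Both edgeR (adjusted p = 0.00700) and DESeq2 (adjusted p = 0.0130) called POLRMT higher. Among 10 nuclear regulators MYC passed, at 3789 and 4057 in shNC and at 6256 and 6021 in shALKBH5 (0.65, SE 0.0459, adjusted p = 0.00559). NRF1, GABPA and YY1, whose letters were counted in the promoters, had log2 fold changes of 0.17, 0.02 and -0.07 and did not pass. Over these 68 genes together the median was 0.10 with 51 above 0, and 2 passed in each direction. The 81 cytosolic ribosomal protein genes had a median of 0.08 with 71 above 0. Of them 3 were higher under limma-trend, 17 under edgeR and 17 of 79 under DESeq2, and the difference from the mitochondrial family was not tested.

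**Figure D5:**
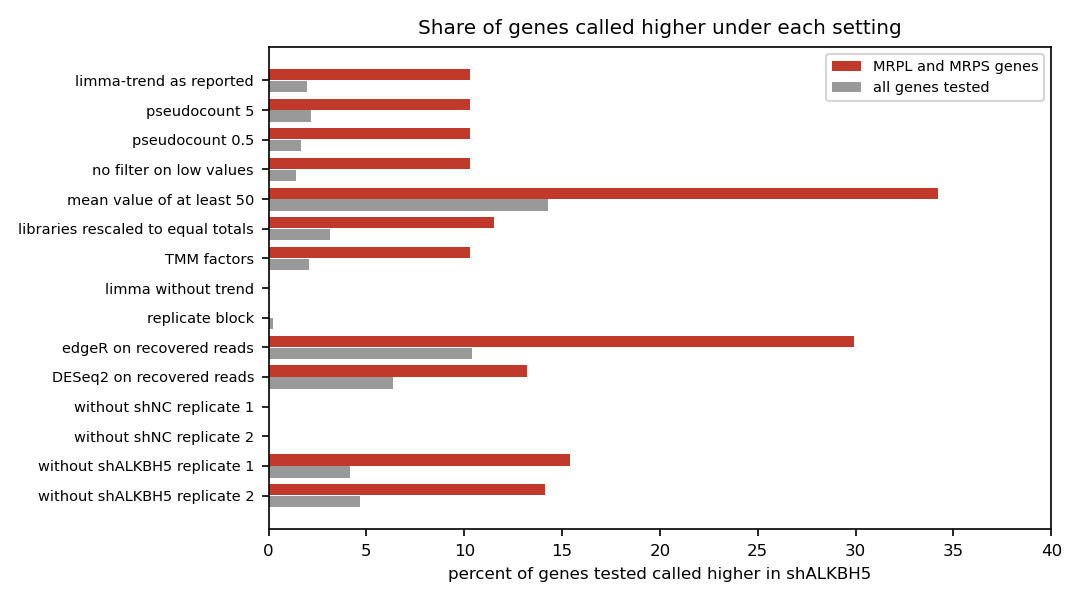
Percent of genes tested that were called higher in shALKBH5 (x axis) for the family (red) and for all genes tested (grey), under limma-trend as reported and 14 other settings (y axis). The red bar is longer than the grey one in each row where genes of the family were called, from 10.3% against 1.98% in the first row to 34.2% against 14.3% with a mean value of at least 50, and the rows without a red bar had 0 genes of the family called.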

How the data were processed

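Sequencing covered 4 HCT116 libraries, 2 shNC and 2 shALKBH5, prepared as mRNA libraries per the labels' protocols. The sources used here do not give the aligner, the counter or the genome build. Of 28391 genes, 28365 (99.9%), the 78 members included, had the same position in GENCODE release 29 on GRCh38. The values the authors deposited are a signal, normalised counts, which are reads per gene divided by a size factor per library. The deposited table also holds the authors' log2 fold changes and the authors' p-values, per the file headers. Taken back to reads, 100% of the values came out whole to within 0.001 of a read. DESeq2 on them differed from the deposited table by at most 4.03e-05 in log2 fold change and 7.95e-06 in p. Chi-square per gene between libraries of a group was 3.00 (shNC) and 2.28 (shALKBH5), more than sampling noise, so each library was counted as a sample.

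The test was limma-trend (limma 3.58.1, R 4.3.3) on log2(value + 1), a scale that understates the change of low genes. It was fitted over the 25887 genes that reached a value of 1 in 2 or more libraries, with p-values adjusted over all of them (Benjamini-Hochberg) and called under 0.05. The prior degrees of freedom were 3.48. On the recovered reads, edgeR 4.0.16 (quasi-likelihood) called 1712 genes higher and 1716 lower, and DESeq2 1.42.0 called 793 and 691. Alternatives changed the pseudocount, the filter, the scaling, the trend and the block, or left out each library. The counting tools without each library were added after seeing the data. The tests were also run on simulated data.

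The members and lists were chosen with earlier results of these data known. Genes named with values in each library were those past the threshold, the 8 of smallest p on either side, the 5 highest and 5 lowest per length, the 3 with the largest gap between libraries of a group among those with a mean of at least 50, and of other lists those that passed or had the smallest p. Members called by some tools only are named without values in each library, other than those the rule covers. MT-RNR1, MT-TV, MTERF1, MRPL45P2, MRPS36, NRF1, GABPA and YY1 fall outside that rule and were named after their values were seen. The roles of genes are background. Promoters are from RefSeq (GRCh38.p14). Of 69 promoters, 61 were found in the genes' transcripts as written and 0 reversed.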

Additional observations from a re-analysis of the deposited data

How the results depend on the processing

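With pseudocounts of 5 or 0.5, no filter, or TMM factors, the same 8 members were higher and 0 lower. With a mean value of at least 50, 26 were higher and 1 lower, where 14.3% and 13.5% of all genes tested were called. With libraries rescaled to equal totals the counts were 9 and 1. Over all genes they were then 787 higher and 1272 lower (3.15% and 5.09%), with the median of all genes moved by -0.03. Without the trend limma called 0 members (10 higher and 2 lower unadjusted), and edgeR called 23 and 1. The 8 genes were among the calls for a mean of at least 50, equal totals, edgeR, DESeq2 and either shALKBH5 library left out. Leaving out 1 library gave 0 to 12 members higher and 0 to 2 lower under limma-trend. Without shNC replicate 1, shNC replicate 2, shALKBH5 replicate 1 and shALKBH5 replicate 2 in turn, edgeR called 22, 26, 13 and 10 higher and 1, 1, 2 and 0 lower, and DESeq2 1, 4, 0 and 1 higher and 0 lower (1.37%, 5.80%, 0% and 1.37% of the members higher, against 2.83%, 4.26%, 1.64% and 1.93% of all genes). Deviations of same-numbered libraries correlated at -0.0275 over 12540 genes and at 0.0968 over 76 members. Whether libraries of the same number shared a batch was not tested. With the replicate block 0 members passed (30 higher and 1 lower unadjusted), and over all genes 56 higher and 55 lower. The median log2 fold change of the family was 0.11 with equal totals and 0.1347 to 0.1747 with 1 library left out (without shNC replicate 2, 0.1747 under limma-trend, 0.1732 under edgeR and 0.1724 under DESeq2). The percentages of all genes called higher and lower were 14.3 and 13.5 with a mean of at least 50. With equal totals they were 3.15 and 5.09, and with no filter 1.41 and 1.35. Without the trend they were 0 and 0, and with the block 0.216 and 0.212. Under edgeR they were 10.4 and 10.4, and under DESeq2 6.38 and 5.56. The related genes are given next as counts, out of at most 68 tested. For the related genes, higher and lower were 19 and 3 with a mean of at least 50, 6 and 3 with equal totals, 2 and 1 with no filter, 0 and 0 without the trend, 1 and 0 with the block, 16 and 4 with edgeR, 4 and 2 with DESeq2, and 0 to 11 and 0 to 3 with 1 library left out under limma-trend (edgeR, in the order above, 14, 15, 7 and 10 higher and up to 4 lower, and DESeq2 1, 2, 1 and 1 higher and 1 lower). ALKBH5 did not pass without the trend (log2 fold change -2.72, adjusted p = 0.0716) or without a shNC library (adjusted p = 0.216 and 0.223), and ranged from -2.83 to -2.62 with 1 library left out. Log2 fold changes near 0 reversed with 1 library left out, in MRPL14 (-0.105 to 0.0266), MRPS6 (-0.179 to 0.0546), MRPL33 (-0.0695 to 0.0125), MRPL51 (-0.0402 to 0.0289), MRPL53 (-0.0888 to 0.364), MRPL36 (-0.245 to 0.253, and -0.0292 with equal totals) and MRPS28 (-0.114 to 0.252). The cause was not tested. These settings were also tallied over the single genes followed other than ALKBH5, with the family's number of genes above 0 included. Of these values 397 kept direction and side of the threshold or stayed alike, 48 lost and 21 gained a call, and 13 reversed. MRPS24 stood at under 10 normalised counts per library. It shares 606 exon bases on its strand with URGCP-MRPS24, and the transcript of it used here has 707 bases. The cause of its low count was not tested.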

Other observations

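Of 75 pseudogenes of the family in GENCODE release 29, which belong to 34 members, 18 were in the table. MRPL45P2 reached 135.1 normalised counts in a library, MRPS31P5 reached 39.5, MRPS31P4 23.3 and MRPS18AP1 18.4, and the others at most 8.56. In MRPL45P2 both shALKBH5 libraries lay above both shNC libraries (78.6 ± 13.0 and 124 ± 16.0 normalised counts, SD, n = 2 each). Its log2 fold change of 0.65 did not pass limma-trend (adjusted p = 0.129).

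MTERF1, a termination factor of mitochondrial transcription, was at 176 and 144.1 normalised counts in shNC and at 232 and 242.2 in shALKBH5. The log2 fold change was 0.57 (adjusted p = 0.0791 by limma-trend and 0.00685 by edgeR). The structural transfer RNA MT-TV was at 53.3 and 35.8 in shNC and at 21.3 and 23 in shALKBH5. Its log2 fold change was -0.95 (adjusted p = 0.156 by limma-trend and 0.0325 by edgeR).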
